A study of Homo sapiens with 47 samples.

Results

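The 43 genes described here are interferon-stimulated genes, taken by symbol from a fixed list and looked up among the 62703 genes of the RNA tables. All 43 had an entry there. Reads were enough for a test in at least 1 comparison for 35 of them, and 37 had a counted chromatin region at their transcription start. The study worked in PC3, a human prostate cancer cell line that grows without androgen. RNA-seq covered cells transduced with an empty vector (genotype Empty Vector OE), with DDC (DDC OE) or with SLC6A4 (SLC6A4 OE), with 3 libraries a line, where OE stands for overexpression. The same 3 lines were used for ChIP-seq of H3K4me3 and of H3K4me3Q5ser with 3 libraries a mark and line, and input DNA of the empty-vector and DDC lines was counted over the same regions. CUT&Tag of H3K4me3 gave 1 library each of control, SLC6A4-overexpressing and SLC6A4-overexpressing shTGM2 cells. DDC encodes the decarboxylase that makes serotonin from its direct precursor, and SLC6A4 encodes the serotonin transporter. TGM2, a transglutaminase, can attach serotonin to glutamine 5 of histone H3, and H3K4me3Q5ser is that modification beside trimethylated lysine 4. All groups are derivatives of one cell line without added interferon in the labels. Neither clones nor separate cultures are named, so the p-values measure only the spread between these libraries, which may be technical.

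Interferons are signalling proteins that cells release on sensing viral nucleic acid. They bind receptors that activate JAK kinases, and type I and III receptors lead to a complex that includes STAT2 and IRF9 and binds the interferon-stimulated response element (ISRE) in promoters and raises a large set of antiviral genes. Many tumour lines express some of these genes at a low level without any added interferon. Here the members are ordered by role: the IFITM membrane proteins, ISG15 and its conjugation enzymes, the RNA-degradation arm, the IFIT proteins, restriction factors, and signalling proteins.

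To show what the starts of these genes look like, the 250 bases before the transcription start are printed for 8 members, 5′ to 3′ on the gene's strand, from RefSeq on GRCh38.p14. The 8 were picked from the 15 members whose RNA passed in at least 1 comparison below, and do not stand for all 15. Capitals mark the ISRE core GAAANNGAAA on either strand (TTTCNNTTTC when read on the other), and overlapping matches run together.
IFITM3: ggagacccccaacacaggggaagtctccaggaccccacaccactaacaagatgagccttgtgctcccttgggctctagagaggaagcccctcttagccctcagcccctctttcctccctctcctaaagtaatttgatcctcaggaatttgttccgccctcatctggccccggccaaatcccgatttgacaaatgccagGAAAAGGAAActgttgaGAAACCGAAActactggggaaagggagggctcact
ISG15: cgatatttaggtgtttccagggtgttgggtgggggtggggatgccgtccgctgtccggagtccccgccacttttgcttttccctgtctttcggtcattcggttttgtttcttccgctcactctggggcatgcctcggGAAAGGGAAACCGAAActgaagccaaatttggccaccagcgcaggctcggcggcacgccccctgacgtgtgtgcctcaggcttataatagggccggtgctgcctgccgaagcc
IFIT3: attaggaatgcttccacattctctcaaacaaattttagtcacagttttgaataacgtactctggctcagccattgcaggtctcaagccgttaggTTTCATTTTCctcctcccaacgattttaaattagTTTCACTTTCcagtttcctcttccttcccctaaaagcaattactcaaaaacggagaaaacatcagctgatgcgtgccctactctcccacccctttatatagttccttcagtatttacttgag
IFIT1: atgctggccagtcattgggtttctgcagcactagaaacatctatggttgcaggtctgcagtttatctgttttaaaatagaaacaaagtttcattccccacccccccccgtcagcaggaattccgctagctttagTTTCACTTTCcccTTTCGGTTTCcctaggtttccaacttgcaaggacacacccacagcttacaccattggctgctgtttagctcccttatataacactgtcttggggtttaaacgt
OAS3: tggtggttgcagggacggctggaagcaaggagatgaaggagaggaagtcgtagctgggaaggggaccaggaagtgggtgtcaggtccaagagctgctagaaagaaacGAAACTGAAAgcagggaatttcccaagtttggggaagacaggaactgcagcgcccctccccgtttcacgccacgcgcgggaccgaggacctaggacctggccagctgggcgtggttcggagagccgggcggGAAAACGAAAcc
ISG20: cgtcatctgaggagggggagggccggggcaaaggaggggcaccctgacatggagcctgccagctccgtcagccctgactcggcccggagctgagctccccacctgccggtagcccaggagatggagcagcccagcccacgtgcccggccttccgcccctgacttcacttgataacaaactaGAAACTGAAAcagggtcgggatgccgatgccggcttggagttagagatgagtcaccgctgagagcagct
IFI44L: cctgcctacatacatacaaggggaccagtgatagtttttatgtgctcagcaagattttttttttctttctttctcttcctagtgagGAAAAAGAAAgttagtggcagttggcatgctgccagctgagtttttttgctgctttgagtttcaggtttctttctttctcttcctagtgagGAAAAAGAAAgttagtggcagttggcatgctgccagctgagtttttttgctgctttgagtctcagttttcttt
UBE2L6: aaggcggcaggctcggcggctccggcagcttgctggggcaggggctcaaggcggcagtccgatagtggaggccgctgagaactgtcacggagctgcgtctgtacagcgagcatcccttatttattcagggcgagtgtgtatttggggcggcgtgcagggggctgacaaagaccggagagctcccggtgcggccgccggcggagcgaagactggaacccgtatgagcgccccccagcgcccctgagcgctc

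The stretches lie at chr11:320861-321110 (minus strand) for IFITM3, chr1:1013247-1013496 (plus) for ISG15, chr10:89327747-89327996 (plus) for IFIT3 and chr10:89392373-89392622 (plus) for IFIT1. The other 4 lie at chr12:112938224-112938473 (plus) for OAS3, chr15:88638766-88639015 (plus) for ISG20, chr1:78620198-78620447 (plus) for IFI44L and chr11:57567936-57568185 (minus) for UBE2L6. IFITM3, ISG15, IFIT3, IFIT1, OAS3 and IFI44L each hold 2 core matches, ISG20 holds 1, and the UBE2L6 window holds none. Both matches of IFI44L lie inside a stretch of 85 bases that occurs again in the same window. Over windows of 300 bases, from 250 before to 50 after the start, 21 of the 34 members with an entry held the ISRE core (61.8%), against 1255 of all 35116 promoters (3.57%). Among members with an RNA call that are not printed, IFI35 and OAS1 held 0 matches in these windows, LGALS3BP 1, and BST2 and IFI27 2 each. The gamma-activated site TTCNNNGAA, an element used in the response to interferon gamma, was found in 9 of the 34 (26.5%) and in 2689 of all promoters (7.66%). A match is a description of letters and not a measured binding site. The windows follow RefSeq starts, which for some members differ from the GENCODE starts used for the chromatin regions. The GENCODE starts of UBE2L6 (chr11:57567672), RSAD2 (chr2:6877777) and MX1 (chr21:41426239) lie outside their windows. So do those of PARP9 (chr3:122564300), IFI16 (chr1:159009907) and IFI27 (chr14:94110815). A window without a match therefore does not show that a member lacks the core. OAS2, IFIT2, TRIM22, OASL, IRF2, MX2, USP18, IFITM2 and IRF7 had no entry.

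The RNA libraries held 17.3 to 21.7 M reads in genes (M, 1e6). DDC itself had 23, 25 and 31 reads in the libraries of the DDC line, 0, 0 and 1 in empty-vector cells and 3, 0 and 0 in the SLC6A4 line. SLC6A4 had 94, 120 and 130 reads in its own line and at most 1 in each other library. TGM2 stood at 1005 to 1049 CPM (counts scaled to library size) in empty-vector cells, 493 to 789.7 in the DDC line and 1625 to 1692 in the SLC6A4 line. The epithelial keratins KRT8 (200 to 403 CPM) and KRT18 (133 to 316 CPM) were present, and KLK3, an androgen target, had no read. Of 7 leukocyte markers 4 were at 0 in all 9 libraries, among them CD3E and NKG7, and the summed level was 0.0471 to 0.347 CPM. Summed endothelial markers moved with the lines, at 11.5 to 12.5 CPM in empty-vector cells, 3.08 to 4.46 CPM with DDC and 1.79 to 2.70 CPM with SLC6A4. This sum was nearly all PECAM1, since VWF and CDH5 had 1 read each, and its part in the results was not tested. The 3 fibroblast markers summed to 2.14 to 2.78, 0.46 to 1.41 and 1.26 to 1.66 CPM, with DCN at 0.

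Without added interferon, 3 members made up most of the signal. Per exon length, IFITM3 stood at 3365 RPKM (reads per kilobase of exon, scaled to library size) in empty-vector cells, ISG15 at 893 RPKM and IFITM2 at 463 RPKM, and these 3 took 86.1% of all reads of members. UBE2L6 (93.2 RPKM), ISG20 (88.5), IFITM1 (66.2), LGALS3BP (38.3) and IFI35 (21.2) followed. The other members were low: 11 lay between 1 and 10 RPKM and 24 under 1, and the median of the 43 was 0.80 RPKM. MX1, a classical marker of an interferon response, stood at 0.83 RPKM, and there were 8 reads of RSAD2, 3 of TRIM22 and none of XAF1 in all 9 libraries together.

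**Figure D1:**
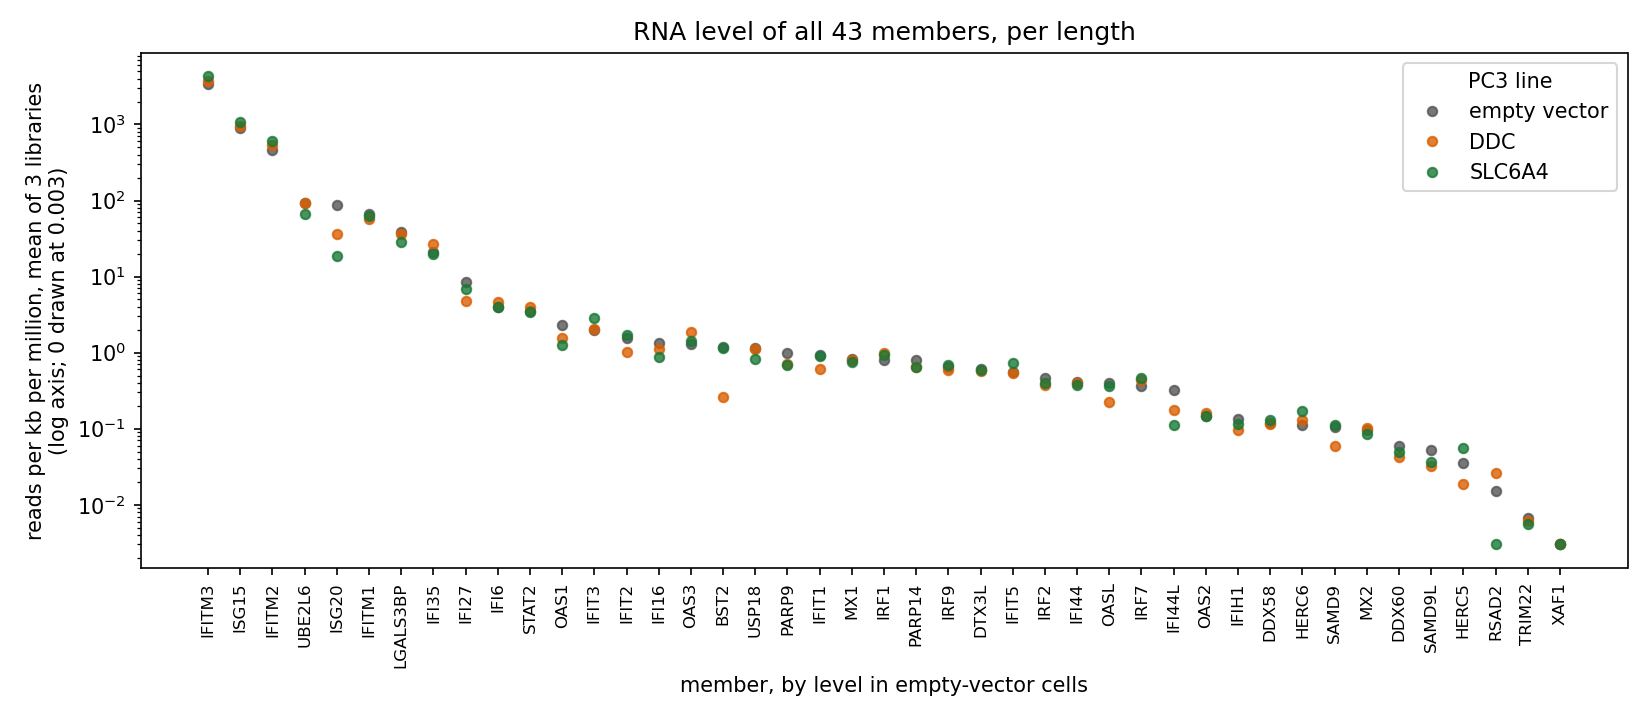
RNA level of each of the 43 members in RPKM (log axis), mean of the 3 libraries of each PC3 line, ordered by the level in empty-vector cells. IFITM3, ISG15 and IFITM2 stand above 100 in every line, 24 members stand under 1 in empty-vector cells, and XAF1 is at 0.

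Members moved in both directions in each line. Against empty vector in the DDC line, 34 members passed the filter on low values, 3 rose (IFITM2, OAS3, IFI35) and 4 fell (ISG20, BST2, IFI27, IFIT2) at an adjusted p under 0.05 (limma, Benjamini-Hochberg over all genes tested). Of all genes tested 8.94% rose and 8.41% fell in that comparison. In the SLC6A4 line, 35 members passed, 4 rose (IFITM3, IFITM2, ISG15, IFIT3) and 5 fell (ISG20, UBE2L6, IFI44L, OAS1, LGALS3BP), against 10.2% and 9.28% of all genes. With DDC set directly against SLC6A4, 5 of 35 were higher in the DDC line (ISG20, UBE2L6, LGALS3BP, OAS3, IFI35) and 3 lower (IFIT2, IFIT1, BST2), against 6.47% and 6.74% of all genes. The share of members called was 8.82% and 11.8% with DDC, 11.4% and 14.3% with SLC6A4, and 14.3% and 8.57% in the direct comparison, each resting on 3 to 5 genes. The median log2 change of the members that passed was 0.04 with DDC and 0.01 with SLC6A4, and over all genes it was 0.01 in both. Both comparisons with empty vector share the same 3 control libraries, so the values of the lines are given side by side and not as independent results. All log2 changes of RNA are on the scale of log2(normalised reads + 1). In bulk RNA, fewer cells with a transcript and less of it per cell cannot be told apart.

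**Figure D2:**
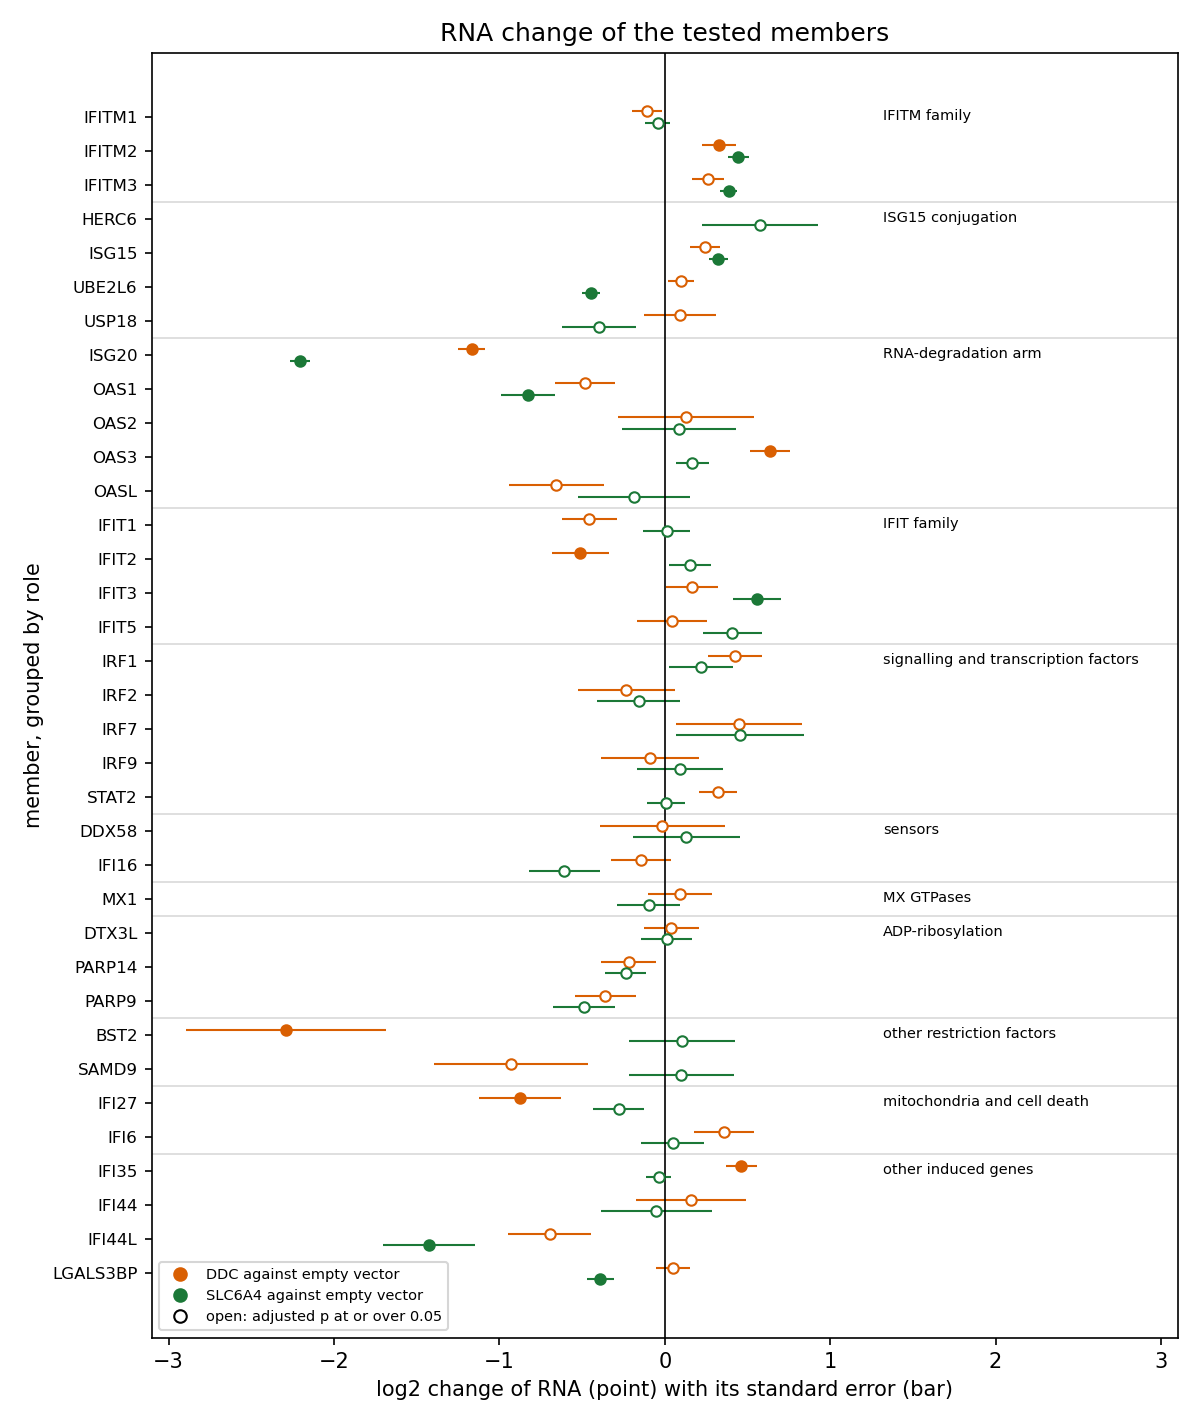
Log2 change of RNA with its standard error for every member that passed the filter, by role, in the DDC line (orange) and the SLC6A4 line (green) against empty vector; filled points have an adjusted p under 0.05. ISG20 is low in both lines, IFITM2 and IFITM3 lie to the right of 0 in both, and most other points are open and scatter around 0.

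Gene positions below are those of GENCODE on GRCh38. IFITM proteins sit in cell and endosomal membranes and block the fusion of enveloped viruses. IFITM3 (ENSG00000142089, chr11:319676-329475) had 39919, 40324 and 36025 normalised reads in the 3 empty-vector libraries, 42645, 42892 and 54055 with DDC, and 50953, 49892 and 50923 with SLC6A4. Every SLC6A4 library lay above every empty-vector library, and so did the DDC libraries by a smaller gap. The log2 change was 0.39 with SLC6A4 (SE 0.05, limma adjusted p = 2.72e-05) and 0.26 with DDC (SE 0.10, adjusted p = 0.0737). IFITM2 (ENSG00000185201, chr11:303655-309397) had 9213, 9406 and 7765 reads in empty-vector cells, 9839, 9959 and 13509 with DDC, and 11807, 11769 and 12205 with SLC6A4. Here too neither line overlapped empty vector, and DDC replicate 3 was the highest of the 9. It rose by 0.45 with SLC6A4 (SE 0.06, limma adjusted p = 4.78e-05) and by 0.33 with DDC (SE 0.10, adjusted p = 0.0291). The DDC call ended without empty-vector replicate 3 (0.24), without DDC replicate 3 (0.18, so that 1 library moved it by over 1.5 times) and in DESeq2 (adjusted p = 0.253) or edgeR scaled by library size alone (adjusted p = 0.0889). IFITM1 had log2 values of -0.11 with DDC and -0.04 with SLC6A4 and did not pass. The 3 IFITM genes are close paralogs, and an unnamed gene on the same strand with 32470 reads overlaps IFITM1 and IFITM2, so how the reads were split between them is uncertain.

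ISG15 is a ubiquitin-like protein that is attached to other proteins, with UBE2L6 as its conjugating enzyme, HERC5 as the main ligase and USP18 as the protease that removes it. ISG15 (ENSG00000187608, chr1:1001138-1014540) had 10102, 11082 and 10925 normalised reads in empty-vector cells, 11261, 12190.1 and 14657 with DDC, and 14496, 12819.6 and 12856 with SLC6A4. All libraries of both lines lay above the empty-vector range, and the lines overlapped each other. The change was 0.32 with SLC6A4 (SE 0.06, limma adjusted p = 4.97e-04) and 0.24 with DDC (SE 0.09, adjusted p = 0.0656). The conjugating enzyme went the other way in the SLC6A4 line. UBE2L6 (ENSG00000156587, chr11:57551656-57568284) had 2190.1, 2132 and 2097 reads in empty-vector cells, 2072, 2329 and 2463 with DDC, and 1596, 1581 and 1534 with SLC6A4. The SLC6A4 libraries lay below all others, and the DDC libraries spanned the empty-vector range. UBE2L6 fell by 0.45 with SLC6A4 (SE 0.05, limma adjusted p = 1.25e-05), had a change of 0.10 with DDC (adjusted p = 0.450), and differed between the lines by 0.54 (SE 0.07, adjusted p = 1.29e-05). So modifier and conjugating enzyme moved in opposite directions with SLC6A4. USP18 (0.09 with DDC and -0.40 with SLC6A4) and HERC6 (0.58 with SLC6A4, not tested with DDC) did not pass, and HERC5 had 23 reads in all libraries together and was not tested.

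In the RNA-degradation arm ISG20 fell in both lines. It is an exonuclease for single-stranded RNA, and the OAS enzymes make the second messenger that activates RNase L. ISG20 (ENSG00000172183, chr15:88635670-88656483) had 2551, 2729 and 2629.9 normalised reads in empty-vector cells, 1068, 1153 and 1298 with DDC, and 571, 586 and 556 with SLC6A4. No group overlapped another, with SLC6A4 lowest and empty vector highest. It fell by 1.17 on the log2 scale with DDC (SE 0.08, limma adjusted p = 2.85e-10) and fell by 2.20 with SLC6A4 (SE 0.06, adjusted p = 3.27e-14), and the lines differed by 1.03 (SE 0.08, adjusted p = 3.26e-09). OAS3 (ENSG00000111331, chr12:112938051-112976460) had 164, 173 and 152 reads in empty-vector cells, 270.1, 277 and 216 with DDC, and 195, 176 and 177 with SLC6A4. The DDC libraries lay above both other groups. OAS3 rose by 0.64 with DDC (SE 0.12, limma adjusted p = 5.48e-04) and had a change of 0.17 with SLC6A4 (adjusted p = 0.286), a difference between the lines of 0.47 (SE 0.11, adjusted p = 0.00730). OAS1 (ENSG00000089127, chr12:112905856-112933219) had 64.8, 78.4 and 71.7 reads in empty-vector cells, 51.9, 40.7 and 61.7 with DDC, and 35.3, 42.7 and 41.8 with SLC6A4. All libraries of both lines lay under the empty-vector range, while the DDC and SLC6A4 lines overlapped. It fell by 0.83 with SLC6A4 (SE 0.17, limma adjusted p = 0.00157), with -0.48 in the DDC line (adjusted p = 0.0718). OAS1 and OAS3 are neighbours, and the log2 values of this pair had opposite signs in both lines. An unnamed antisense gene with 92 reads overlaps OAS1, OAS2 and OAS3, and the counting is not stated to use strand. OAS2 (0.13 and 0.09) and OASL (-0.66 and -0.19) did not pass with DDC or SLC6A4.

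**Figure D3:**
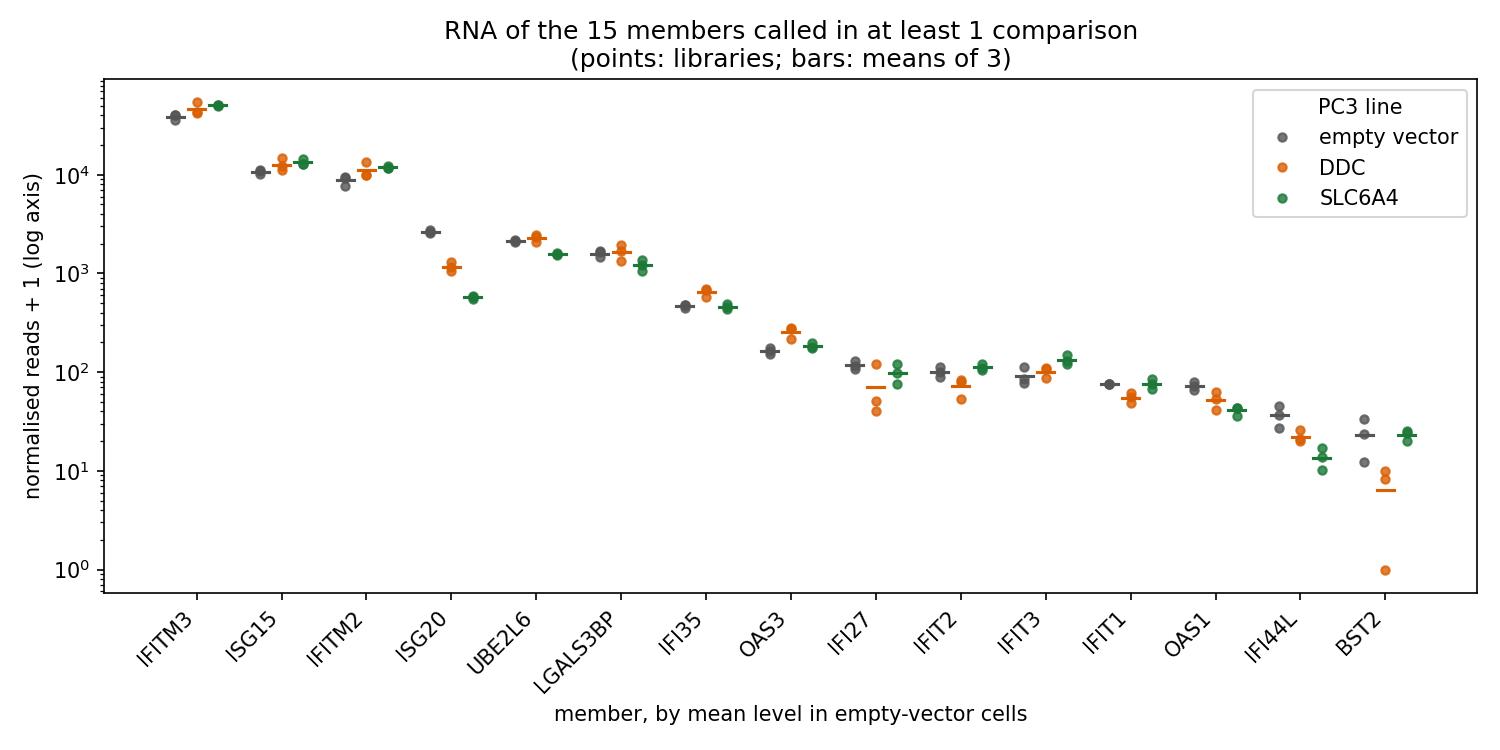
Normalised reads + 1 (log axis) of the 15 members that passed in at least 1 comparison, with 1 point for each library and a bar at the mean of 3, in empty-vector, DDC and SLC6A4 cells. ISG20 is highest in the 3 empty-vector libraries and lowest with SLC6A4, OAS3 is highest with DDC, and 1 DDC library has no read of BST2.

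IFIT proteins bind viral RNA and hold back its translation. IFIT1 and IFIT2 differed between the lines in the direct test. IFIT3 (ENSG00000119917, chr10:89327307-89377473) had 84.4, 111 and 76.0 normalised reads in empty-vector cells, 87.3, 106 and 108.4 with DDC, and 128, 119.8 and 149 with SLC6A4. Only the SLC6A4 libraries lay clear of the empty-vector ones. The change was 0.56 with SLC6A4 (SE 0.15, limma adjusted p = 0.0113) and 0.16 with DDC (adjusted p = 0.528). Without empty-vector replicate 3 the SLC6A4 call ended (0.45, limma adjusted p = 0.0525), as it did without SLC6A4 replicate 3 (0.47, adjusted p = 0.0647). IFIT2 (ENSG00000119922, chr10:89283694-89309271) had 88.5, 100.2 and 112 reads in empty-vector cells, 82.1, 52.8 and 77.6 with DDC, and 105, 119 and 109.6 with SLC6A4. Its DDC libraries were the lowest of the 9. IFIT2 fell by 0.51 with DDC (SE 0.17, limma adjusted p = 0.0416) and the difference of DDC from SLC6A4 was -0.67 (SE 0.16, adjusted p = 0.00644). The call against empty vector ended in DESeq2 (adjusted p = 0.109), without empty-vector replicate 2 (adjusted p = 0.0958) or 3 (adjusted p = 0.159), and without DDC replicate 2 (-0.32, adjusted p = 0.232, so that 1 library moved it by over 1.5 times). IFIT1 (ENSG00000185745, chr10:89392546-89406487) had 74.1, 75.1 and 74.3 reads in empty-vector cells, 60.2, 47.3 and 54.7 with DDC, and 75.3, 66.3 and 84.7 with SLC6A4. Again the DDC libraries were the lowest, and the SLC6A4 libraries spanned the empty-vector values. The log2 difference of IFIT1 with DDC was -0.46 from empty vector (SE 0.17, limma adjusted p = 0.0607) and -0.47 from SLC6A4 (SE 0.15, adjusted p = 0.0463). That difference missed the threshold in edgeR with TMM scaling (adjusted p = 0.0537), in DESeq2 (adjusted p = 0.128), with no filter on low values (adjusted p = 0.0790) and without DDC replicate 2 or 3 or SLC6A4 replicate 1 or 3 (IFIT1 adjusted p of 0.0755 to 0.202). IFIT5 did not pass (0.04 and 0.41). LIPA, on the opposite strand with 2197 reads, overlaps IFIT1, IFIT2 and IFIT3, and reads of the 2 strands cannot be told apart unless the counting used strand, which is not stated.

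Among restriction factors, BST2 (ENSG00000130303, chr19:17402939-17405630), or tetherin, which holds budding virus at the cell surface, had 11.3, 22.9 and 32.8 normalised reads in empty-vector cells, 7.27, 0 and 8.95 with DDC, and 23.3, 24.5 and 18.9 with SLC6A4. The DDC libraries were the lowest, at a level of few reads. BST2 fell by 2.29 with DDC against empty vector (SE 0.60, limma adjusted p = 0.00985) and the difference from SLC6A4 was -2.41 (SE 0.58, adjusted p = 0.00713). It passed the filter only through the higher group in both comparisons, 1 DDC library had no read, the values were -1.24 and -1.35 without that library (replicate 2), and DESeq2 gave an adjusted p of 0.205 against empty vector. SAMD9 (-0.93 with DDC and 0.10 with SLC6A4) and the GTPase MX1 (0.09 and -0.10) did not pass, and MX2, RSAD2, SAMD9L and TRIM22 had too few reads. The gene of the mitochondrial protein IFI27 (ENSG00000165949, chr14:94104836-94116695) had 113, 129 and 107 reads in empty-vector cells, 120.5, 50.6 and 39.8 with DDC, and 74.4, 97.1 and 119.6 with SLC6A4. DDC replicate 1 lay within the empty-vector range and the other 2 far below it. IFI27 fell by 0.88 with DDC (SE 0.25, limma adjusted p = 0.0156), a call that ended without empty-vector replicate 2 (adjusted p = 0.0521) and in DESeq2 (adjusted p = 0.404). It also ended without DDC replicate 2 (-0.73, limma adjusted p = 0.0715) or 3 (-0.56, adjusted p = 0.123), and without DDC replicate 1 the value was -1.35, so that single DDC libraries moved it by over 1.5 times.

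Of the remaining induced genes, IFI35 (ENSG00000068079, chr17:43006740-43014456), a regulator of innate signalling, had 451, 484 and 479 normalised reads in empty-vector cells, 575, 689 and 682 with DDC, and 436, 486 and 454 with SLC6A4. The DDC libraries lay above all others. IFI35 rose by 0.46 with DDC (SE 0.09, limma adjusted p = 0.00117), with -0.04 in the SLC6A4 line, and the lines differed by 0.50 (SE 0.09, adjusted p = 4.11e-04). LGALS3BP (ENSG00000108679, chr17:78971238-78979947), a secreted glycoprotein, had 1650.0, 1673 and 1451 reads in empty-vector cells, 1347, 1689.7 and 1932 with DDC, and 1066, 1373 and 1214 with SLC6A4. The SLC6A4 libraries lay under the empty-vector range and overlapped the DDC libraries. It fell by 0.39 with SLC6A4 (SE 0.08, limma adjusted p = 0.00241) and was 0.44 higher with DDC than with SLC6A4 (SE 0.11, adjusted p = 0.00778, and 0.0557 without SLC6A4 replicate 1). IFI44L (ENSG00000137959, chr1:78619902-78646145) had 36.0, 26.1 and 44.9 reads in empty-vector cells, 24.9, 19.8 and 18.9 with DDC, and 9.30, 12.7 and 15.9 with SLC6A4. The 3 groups did not overlap, with SLC6A4 lowest. It fell by 1.42 with SLC6A4 (SE 0.28, limma adjusted p = 0.00129), with -0.70 in the DDC line (adjusted p = 0.0588) and a direct difference of 0.72 (adjusted p = 0.0877). Its neighbour IFI44 had values of 0.16 and -0.05 and did not pass.

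The calls of ISG20, UBE2L6, IFITM3, ISG15, OAS1, OAS3, IFI35 and IFI44L against empty vector held in every alternative run for RNA. No member with a signalling or transcription role passed in any of the 3 comparisons (limma). With DDC the 5 ranged from -0.23 for IRF2 to 0.45 for IRF7 on the log2 scale, and STAT2 (0.32, SE 0.11, limma adjusted p = 0.0545) came nearest to the threshold. With SLC6A4 they ranged from -0.16 to 0.46. Among sensors 2 of 4 were tested, and all 3 of the ADP-ribosylation group, also without a call. IFI16, a DNA sensor, had -0.61 with SLC6A4 (SE 0.22, limma adjusted p = 0.0574), and PARP9, PARP14 and DTX3L lay between -0.49 and 0.04 in both lines. Over all genes tested, 8.94% rose and 8.41% fell with DDC, 10.2% and 9.28% with SLC6A4, and 6.47% and 6.74% in the direct comparison. At such shares, no call among 2 to 5 tested genes cannot be read as a trait of these groups. PARP9 and DTX3L overlap on opposite strands with 429 and 606 reads. IFIH1, MX2, DDX60, SAMD9L, HERC5, RSAD2, TRIM22 and XAF1 were tested in no comparison.

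Around the members, 57 further genes of the interferon pathway were read from a list, and 38 of them were tested. Of these, 8 rose and 4 fell with DDC, 4 rose and 4 fell with SLC6A4, and 3 were higher and 3 lower with DDC than with SLC6A4 (limma, adjusted p under 0.05). Of all genes tested 8.94% rose and 8.41% fell with DDC, 10.2% and 9.28% with SLC6A4, and 6.47% and 6.74% were higher and lower in the direct comparison. The median log2 change of the 38 was 0.07, 0.05 and 0.09 in these comparisons. None of 7 ligand genes was tested, since IFNB1 had 2 reads, IFNE 4, IFNL1 1 and IFNL2, IFNL3, IFNG and IFNK none in 9 libraries. Of 6 receptor subunits tested, 2 fell in each line and none rose: IFNGR1 (-0.69) and IL10RB (-0.43) fell with DDC, and IFNGR2 (-0.65) and IL10RB (-0.34) fell with SLC6A4. In the arm that induces interferon, the adaptor MAVS (0.29), the kinase IKBKE (0.38) and the factor IRF3 (0.41) rose with DDC, and IRF3 rose by 0.27 with SLC6A4. JAK2 had 16 reads and STAT3 had 3 in all 9 libraries. SOCS3, which restrains cytokine signalling, rose by 0.81 with DDC and was 0.64 higher than with SLC6A4. GBP2, a GTPase typical of the response to interferon gamma with at most 35 reads a library, fell in both lines (-0.99 with DDC and -2.16 with SLC6A4). The antigen-processing genes TAP1 (0.45 and 0.65) and PSMB9 (0.45 and 0.21) rose in both lines, while B2M fell by 0.21 with SLC6A4 and PSMB8 rose by 0.38 with DDC. TRIM14 rose by 0.35 and 0.65, and PLSCR1 fell by 0.42 with DDC, with a difference of -0.37 from SLC6A4. With DDC set against SLC6A4, CD274, the ligand of PD-1, had -1.12 and EIF2AK2, the RNA-activated kinase, -0.54.

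For chromatin, one of the authors' 19535 H3K4me3Q5ser regions, over which both marks were counted, was assigned to a member when it lay within 1000 bases of the gene's start. This gave 35 regions for 37 members, since PARP9 with DTX3L and IFITM1 with IFITM2 share one each. BST2, TRIM22, XAF1, IFI44, IFI27 and MX2 had none. The regions held 13.5 to 24.8 M read pairs in the H3K4me3Q5ser libraries, 3.43 to 5.81 M in the H3K4me3 libraries and 1.39 to 1.83 M in the inputs. In empty-vector cells the member regions had a median of 7.11 CPM per kilobase of H3K4me3Q5ser and 9.42 of H3K4me3, against 6.60 and 7.98 over all regions. These CPM are scaled to the reads within the regions, so they do not measure enrichment over input. In empty-vector cells H3K4me3 and input stood at 50.2 and 51.6 CPM at OAS3 and at 64.5 and 79.1 at UBE2L6. At IFI44L they stood at 81.2 and 62.1. A region was present also at genes with almost no RNA, such as RSAD2 and SAMD9L. Input in the DDC line differed from empty vector at member regions by a median log2 of 0.01, from -0.57 at IRF9 to 0.48 at OAS3. Input values stand beside only some of the results below, and the part of input in any result was not tested. At HERC5, DDX60, IFIH1 and RSAD2 input with DDC had log2 values of -0.21, -0.18, -0.18 and -0.28. H3K4me3Q5ser was also lower there, though RSAD2 did not pass. At IFI6, where that mark fell, input had 0.18. Input of the SLC6A4 line was not used here.

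GC content has to be read beside every change of the marks in the SLC6A4 line. Over all 19480 H3K4me3Q5ser regions with a sequence, the log2 change with SLC6A4 and the GC content of the region had a Spearman correlation of 0.71, and for H3K4me3 it was 0.68, as a description over regions that share the same libraries. The decile of regions with the least GC had a median change of -0.97 (H3K4me3Q5ser) and -0.71 (H3K4me3), and the decile with the most GC 0.59 and 0.51. In the DDC line the correlations were 0.12 and -0.15. The decile medians there ran from -0.20 (least GC) to 0.06 for H3K4me3Q5ser, and from -0.16 (most GC) to 0.05 for H3K4me3. Over the 35 member regions the SLC6A4 values were 0.79 and 0.83 and the DDC values 0.42 and 0.16, and with the offsets described below the DDC value of H3K4me3Q5ser was still 0.38. Across these regions the GC content ran from 35.8% at IFI16 to 65.7% at ISG20, with a median of 47.5% against 46.8% for all. Why GC content and mark moved together was not tested. Changes are therefore given as edgeR estimated them and with offsets that set the median level of each of 20 GC bins equal across libraries, an alternative chosen after seeing the data.

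**Figure D4:**
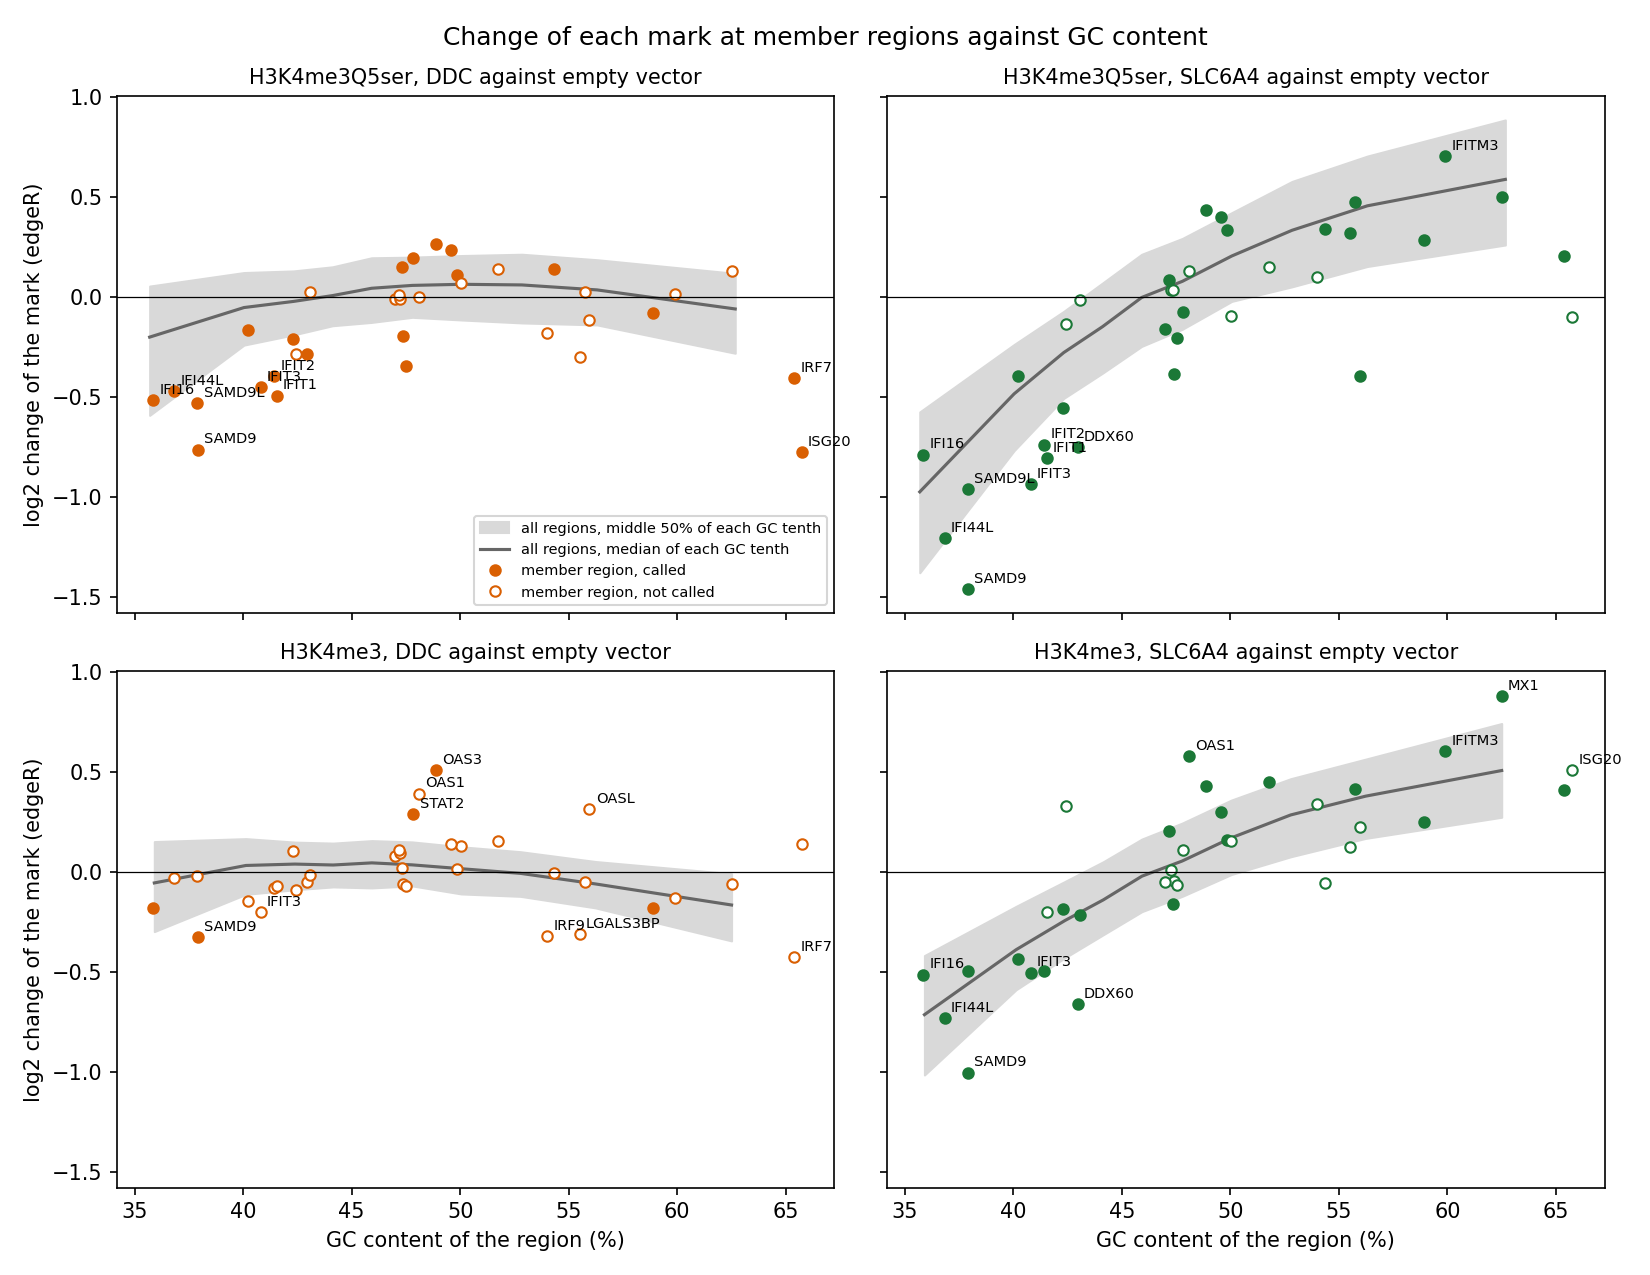
Log2 change of H3K4me3Q5ser (top) and H3K4me3 (bottom) at the 35 member regions (points, filled when the adjusted p is under 0.05) against the GC content of the region, in the DDC line (left) and the SLC6A4 line (right); the line and band show the median and the middle 50% of all regions in each decile of GC. With SLC6A4 the member regions follow the slope of all regions, with medians from -0.97 to 0.59 for H3K4me3Q5ser. The lines of all regions in the DDC panels span less, with medians from -0.20 to 0.06 for H3K4me3Q5ser and from -0.16 to 0.05 for H3K4me3.

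H3K4me3Q5ser was lower at more member regions than it was higher in the DDC line. Of 35 regions 6 rose and 15 fell (edgeR, adjusted p under 0.05 over all regions), where 29.7% of all regions rose and 31.5% fell, and the median log2 change was -0.11 against 0.00 for all. With the GC offsets 5 rose and 17 fell, with a median of -0.11 and a background of 30.6% and 30%. In the SLC6A4 line 11 rose and 15 fell, against a background of 41% and 41.5%, with a median of -0.08, and with the offsets 5 rose and 18 fell, with a median of -0.20 and a background of 36.4% and 37.1%. H3K4me3 moved less with DDC: 2 regions rose and 3 fell (background 8.24% and 9.39%), and 2 and 2 with the offsets (7.27% and 8.28%). With SLC6A4, 11 rose and 11 fell (background 31.9% and 29.6%), and 5 and 7 with the offsets (background 20.98% and 20.2%). With DDC set directly against SLC6A4, H3K4me3Q5ser was higher at 15 and lower at 13 member regions (background 38% and 38.9%), and H3K4me3 higher at 12 and lower at 10 (29.3% and 30.9%). The offsets gave 12 and 7 for H3K4me3Q5ser and 6 and 2 for H3K4me3 in that comparison, against 28.99% and 32.0%, and 14.3% and 16.6%, of all regions.

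Both marks fell in both lines at SAMD9, an antiviral factor, whose region lies at chr7:93115706-93119108 with 37.9% GC. Its H3K4me3Q5ser level was 44.5, 46.0 and 44.2 CPM in empty-vector cells, 27.2, 25.55 and 26.8 with DDC, and 16.7, 16.4 and 15.96 with SLC6A4. Its H3K4me3 level was 88.6, 92.0 and 94.0, then 71.0, 71.1 and 77.0, then 44.1, 43.9 and 48.7 CPM. For both marks the groups did not overlap, and SLC6A4 was lowest. Input at SAMD9 was also lower with DDC, at 61.8 ± 3.47 CPM in empty-vector cells and 45.6 ± 5.01 with DDC (mean ± SD, n = 3; log2 -0.44). The log2 change of H3K4me3Q5ser was -0.76 with DDC (SE 0.05, edgeR adjusted p = 2.57e-30) and -1.46 with SLC6A4 (SE 0.05, adjusted p = 5.01e-55), and that of H3K4me3 was -0.32 and -1.002. With the GC offsets the H3K4me3Q5ser changes were -0.60 and -0.70 and the H3K4me3 changes -0.31 and -0.44, so the gap between the lines shrank. SAMD9L, next to SAMD9, had -0.53 and -0.96 for H3K4me3Q5ser, and -0.37 and -0.20 with the offsets.

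At IFIT1, IFIT2 and IFIT3 on chromosome 10, H3K4me3Q5ser fell in both lines, while IFIT2 RNA fell with DDC and IFIT3 RNA rose with SLC6A4. IFIT1 (chr10:89391662-89394477, 41.5% GC) had 23.8, 25.4 and 25.2 CPM of H3K4me3Q5ser in empty-vector cells, 18.4, 16.9 and 17.6 with DDC, and 13.9, 13.8 and 14.8 with SLC6A4. Its H3K4me3 was 32.1, 38.5 and 39.7, then 34.3, 33.9 and 37.5, then 38.3, 29.6 and 29.6 CPM. The groups were apart for H3K4me3Q5ser and overlapped for H3K4me3. H3K4me3Q5ser at IFIT1 changed by -0.49 with DDC (SE 0.06, edgeR adjusted p = 1.11e-12) and by -0.80 with SLC6A4 (SE 0.06, adjusted p = 2.65e-26), with -0.46 and -0.51 under the offsets, while H3K4me3 did not pass (-0.07 and -0.20). Input with DDC had log2 values of -0.26 at IFIT1, 0.11 at IFIT2 and -0.19 at IFIT3. IFIT2 (-0.40 and -0.74) and IFIT3 (-0.45 and -0.93) fell likewise, with -0.36 and -0.45 for IFIT2 and -0.39 and -0.54 for IFIT3 under the offsets. IFIT5, at the end of the cluster, had 0.03 and -0.01, and with the offsets it passed with SLC6A4 at 0.23 (edgeR adjusted p = 1.63e-11). DDX60, a helicase that acts with RIG-I, had H3K4me3Q5ser changes of -0.28 and -0.75, with -0.25 and -0.50 under the offsets.

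OAS3 was a region where both marks rose in both lines (chr12:112936380-112942735, 48.9% GC). Its H3K4me3Q5ser level was 43.3, 41.5 and 42.2 CPM in empty-vector cells, 48.7, 52.5 and 51.8 with DDC, and 57.7, 55.9 and 58.3 with SLC6A4. H3K4me3 there was 50.0, 53.5 and 47.0, then 73.2, 73.9 and 68.0, then 64.9, 72.7 and 65.7 CPM. Both lines lay above empty vector for both marks. Input at OAS3 was also higher with DDC, at 51.6 ± 3.38 CPM in empty-vector cells and 72.1 ± 7.78 with DDC (mean ± SD, n = 3; log2 0.48). H3K4me3Q5ser rose by 0.27 with DDC (SE 0.04, edgeR adjusted p = 2.07e-09) and by 0.44 with SLC6A4 (SE 0.03, adjusted p = 2.25e-22), and by 0.22 and 0.31 with the offsets. H3K4me3 rose by 0.51 and 0.43, and by 0.47 and 0.34 with the offsets. UBE2L6 (chr11:57562751-57570307, 49.6% GC) also gained H3K4me3Q5ser in both lines, by 0.24 and 0.40 and by 0.18 and 0.21 with the offsets, where input with DDC had a log2 value of 0.023, and its RNA fell with SLC6A4. STAT2 rose with DDC in both marks (0.20 and 0.29), with 0.15 and 0.25 under the offsets, and its input had 0.26.

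At the members with the most RNA the sign or the size of the change in the SLC6A4 line depended on the GC offsets. ISG15 (chr1:1006165-1025480, 58.9% GC) had 178, 175 and 182 CPM of H3K4me3Q5ser in empty-vector cells, 167, 169.6 and 169 with DDC, and 223, 216 and 214 with SLC6A4. This region runs past the end of the gene (chr1:1014540), so its counts are not those of the ISG15 start alone. The SLC6A4 libraries were highest and the DDC libraries lowest. The change with SLC6A4 was 0.29 (SE 0.02, edgeR adjusted p = 1.36e-27), and -0.20 with the offsets (adjusted p = 3.06e-18), past the threshold on both sides of 0. Likewise H3K4me3 at ISG15 was 0.25 and, with the offsets, -0.22. With DDC the H3K4me3Q5ser change was -0.08, and -0.11 with the offsets. IFITM3 (chr11:316236-321374, 59.9% GC) rose by 0.71 with SLC6A4 (SE 0.03, edgeR adjusted p = 1.13e-39) and by 0.14 with the offsets (adjusted p = 9.17e-05), and the region shared by IFITM1 and IFITM2 went from 0.48 to 0.05. ISG20, whose RNA fell in both lines, has a short region of 394 bases with 65.7% GC (chr15:88638867-88639260) and few reads. Its H3K4me3Q5ser level was 1.95, 1.90 and 1.80 CPM in empty-vector cells, 1.31, 1.13 and 0.80 with DDC, and 1.75, 1.79 and 1.74 with SLC6A4. The DDC libraries were lowest, and SLC6A4 lay just under empty vector. The change was -0.77 with DDC (SE 0.22, edgeR adjusted p = 0.00168; -0.66 with the offsets) and -0.10 with SLC6A4 (adjusted p = 0.621), which became -0.71 with the offsets (adjusted p = 2.25e-04).

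**Figure D5:**
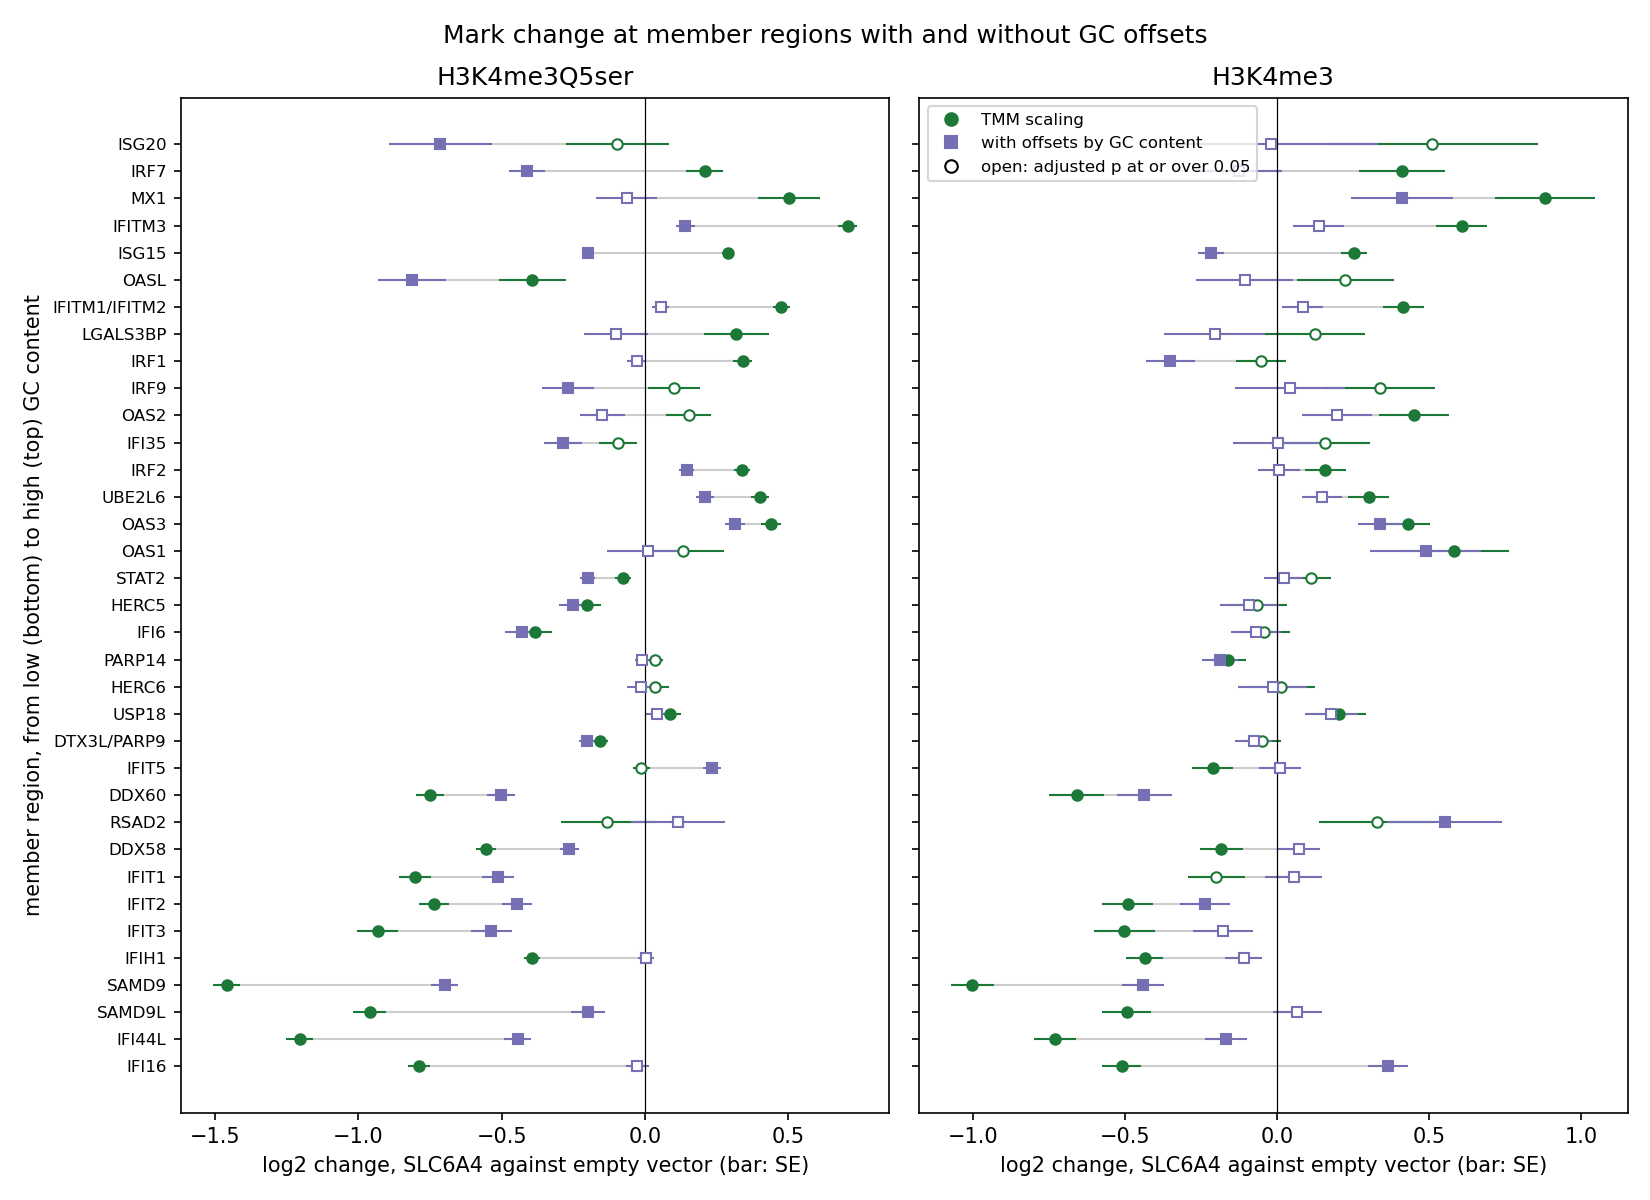
Log2 change with its standard error of H3K4me3Q5ser (left) and H3K4me3 (right) at the 35 member regions with SLC6A4 against empty vector, ordered from the least GC (bottom) to the most (top), with TMM scaling (green circles) and with offsets by GC content (violet squares); open symbols did not pass. The symbols part most at both ends of the GC order, ISG15 crosses 0 from 0.29 to -0.20, and SAMD9, IFI44L, DDX60 and the IFIT1 to IFIT3 regions stay below 0 on the left.

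The signalling genes, sensors and remaining members completed the picture, with levels as mean ± SD of 3 libraries in CPM. Among sensors, IFI16 (chr1:159009073-159013089, 35.8% GC) had 51.7 ± 0.422 of H3K4me3Q5ser in empty-vector cells, 36.1 ± 0.589 with DDC and 29.9 ± 0.63 with SLC6A4. Its SLC6A4 change of -0.79 became -0.03 with the offsets, and for H3K4me3 -0.51 became 0.37. DDX58, which encodes RIG-I (chr9:32521512-32528960), had 63.2 ± 0.249, 54.8 ± 2.59 and 43.2 ± 2.02, with changes of -0.21 and -0.55 that passed also with the offsets (-0.17 and -0.26). The H3K4me3 change of DDX58 with SLC6A4 was -0.18, and -0.11 without empty-vector replicate 3, where it no longer passed. IFIH1, or MDA5 (chr2:162314869-162321662), had 83.8 ± 0.725, 74.8 ± 0.332 and 63.6 ± 1.94, and its SLC6A4 change of -0.39 became 0.0020 with the offsets. So all 4 sensor regions were lower in H3K4me3Q5ser in both lines before the offsets. With the offsets all 4 passed as lower in the DDC line, and DDX58 and DDX60 in the SLC6A4 line. Of all regions 31.5% passed as lower with DDC and 41.5% with SLC6A4, and 30% and 37.1% with the offsets. Input with DDC had log2 values of -0.024 at DDX58 and -0.18 at both IFIH1 and DDX60. Counts over 4 regions cannot be read as a trait of the sensors.

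Of the signalling and transcription factors, IRF7 (chr11:614275-616466, 65.4% GC), the factor that amplifies interferon production, had 13.96 ± 0.827 CPM of H3K4me3Q5ser in empty-vector cells, 10.6 ± 0.501 with DDC and 16.1 ± 0.566 with SLC6A4. It fell with DDC (-0.40, and -0.29 with the offsets), while the SLC6A4 change of 0.21 became -0.41. IRF1 (chr5:132486513-132493477) had 46.1 ± 1.68, 50.9 ± 2.13 and 58.4 ± 0.762, with 0.14 and 0.34, and 0.08 and -0.03 with the offsets. IRF2 (chr4:184468848-184478066), which can repress IRF1 targets, rose by 0.11 and 0.34, and with the offsets it had 0.06 with DDC, which did not pass, and 0.14 with SLC6A4. IRF9 did not pass against empty vector (-0.18 and 0.10), and passed as lower in both lines with the offsets (-0.23 and -0.27). STAT2 (chr12:56354040-56366000) had 90.4 ± 3.98, 104 ± 2.03 and 85.8 ± 2.17, and its SLC6A4 change of -0.08 was -0.04 without empty-vector replicate 1, where STAT2 missed the threshold.

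IFI44L (chr1:78619452-78623284, 36.8% GC) had 41.7 ± 1.53 CPM of H3K4me3Q5ser in empty-vector cells, 30.1 ± 1.33 with DDC and 18.1 ± 0.432 with SLC6A4, and 81.2 ± 4.67, 80.2 ± 2.11 and 49.2 ± 4.89 of H3K4me3. Its H3K4me3Q5ser changes were -0.47 and -1.20, and -0.31 and -0.44 with the offsets, so it kept its direction in both lines, and its input with DDC had -0.23. IFI6, a mitochondrial survival protein (chr1:27669245-27673429, 47.4% GC), fell in H3K4me3Q5ser in both lines (-0.19 and -0.38), with -0.23 and -0.43 under the offsets, and its H3K4me3 did not pass (-0.06 and -0.04). HERC5 (-0.34 and -0.20) fell likewise, with -0.37 and -0.25 under the offsets. MX1 (chr21:41425706-41426817, 62.5% GC) had 8.66 ± 1.14, 8.34 ± 1.04 and 15.9 ± 2.46 CPM of H3K4me3, a rise of 0.88 with SLC6A4 and of 0.41 with the offsets. OAS1 (chr12:112906952-112907639) also rose in H3K4me3 with SLC6A4 (0.58, and 0.49 with the offsets), while its RNA fell. OASL had H3K4me3Q5ser changes of -0.11 and -0.39, and -0.16 and -0.81 with the offsets, and OAS2 rose with SLC6A4 only in H3K4me3 (0.45, and 0.20 with the offsets, which did not pass). PARP14 rose in H3K4me3Q5ser with DDC (0.15), and the region shared by PARP9 and DTX3L fell with SLC6A4 (-0.16, and -0.20 with the offsets). LGALS3BP rose with SLC6A4 (0.32), but had 0.18 without SLC6A4 replicate 2, where it did not pass, and -0.10 with the offsets. In H3K4me3Q5ser, IFI35 (0.07 and -0.09) did not pass in either line, and with the offsets it passed as lower with SLC6A4 (-0.29). RSAD2 (-0.29 and -0.13) did not pass for that mark. USP18 passed with SLC6A4 for H3K4me3Q5ser (0.09) and H3K4me3 (0.20), and for neither with the offsets (0.04 and 0.18). HERC6 was the only region that passed for neither mark in any comparison with empty vector or between the lines (edgeR, TMM scaling).

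A model over both marks asked whether H3K4me3Q5ser changed by another amount than H3K4me3. At 8 member regions with DDC the change of H3K4me3Q5ser was the lower one and at 0 the higher (edgeR interaction, adjusted p under 0.05; background 10.6% lower and 4.78% higher). With SLC6A4 it was lower at 11 and higher at 3 (background 14.8% and 14.3%). The 8 were DDX58, OAS3, IFIT2, IFI44L, IFI16, SAMD9L, IFIT1 and SAMD9, with differences between -0.24 (OAS3) and -0.51 (SAMD9L). With SLC6A4, IFIT1 had -0.60 (SE 0.11, edgeR adjusted p = 2.06e-06), OASL -0.62 and IFIT3 -0.43, and the 3 higher ones were IRF1 (0.39), IFIT5 (0.20) and PARP14 (0.20). With the GC offsets 6 regions passed as lower with DDC (background 6.55% lower and 2.61% higher), and 10 as lower and 3 as higher with SLC6A4 (background 13.5% and 12.8%). IFIT2 and IFI16 then missed the threshold in both lines, and OAS2 passed with SLC6A4 (-0.35). Leaving out single libraries ended the call of OAS3 and IFIT2 with DDC and of IFIT2, IFI6, OASL, IFIT5, STAT2 and PARP14 with SLC6A4. IFIT2 with SLC6A4 moved most, to -0.16 without H3K4me3 empty-vector replicate 2.

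RNA and marks were set side by side for the members whose RNA passed. With SLC6A4, 9 such members had a region: H3K4me3Q5ser passed in the direction of the RNA at 4 and against it at 3, and with the offsets at 3 and 3. IFIT3 RNA rose by 0.56 while its H3K4me3Q5ser change was -0.93, and UBE2L6 RNA fell by 0.45 while its H3K4me3Q5ser rose by 0.40. IFI44L RNA and both its marks fell. With DDC, 5 such members had a region, and H3K4me3Q5ser passed in the direction of the RNA at 3 (OAS3, IFIT2, ISG20) and against it at none, with the same counts under the offsets. H3K4me3 did so at 1 of the 5 with DDC (OAS3) and at 4 of 9 with SLC6A4, against 3 in the other direction there. With the offsets H3K4me3 passed in the direction of the RNA at 1 with DDC and 1 with SLC6A4, and against it at 2 with SLC6A4. With DDC set against SLC6A4, 7 such members had a region, H3K4me3Q5ser passed in the direction of the RNA at 1 (IFI35) and against it at 6, and with the offsets at 1 and 1 (OAS3). No such counts were made over all genes whose RNA passed, so these describe the members alone. Of all regions, H3K4me3Q5ser passed as higher at 29.7% and as lower at 31.5% with DDC. With SLC6A4 these shares were 41% and 41.5%, and in the direct comparison 38% and 38.9%. For H3K4me3 they were 8.24% and 9.39%, 31.9% and 29.6%, and 29.3% and 30.9%.

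CUT&Tag gave H3K4me3 levels for 29 peaks near the starts of 25 members, with 1 library in each group and so with no test. The log2 ratio of SLC6A4 to control had a median of 0.03 over the 29 peaks, against 0.10 over all 13882 peaks of the table, which matches the authors' list of peaks called non-up. The authors' name for this set calls its H3K4me3 peaks Q5-nondependent, so they may have been picked for not depending on the serotonylated mark. The list of non-up peaks and its counterpart of up peaks name no sample, so the comparison by which the peaks were sorted is not known. The ratios, also those with shTGM2, hold only for the peaks of this table. SLC6A4 cells with shTGM2, an RNA hairpin against the transglutaminase, had a median of -0.01 against SLC6A4 cells, and all peaks -0.08. The lowest ratios to control were at SAMD9 (-0.80, from 5.60 to 3.22 CPM, and 3.53 with shTGM2), IFIT2 (-0.72, from 8.38 to 5.09, and 6.35), OAS2 (-0.61) and IFI16 (-0.55). The highest was IFITM3 (0.31, from 31.1 to 38.7 CPM, and 38.5 with shTGM2), and ISG15 hardly differed (68.4, 67.3 and 74.3 CPM). The ChIP of H3K4me3 in the SLC6A4 line had -1.002 at SAMD9, -0.49 at IFIT2, 0.45 at OAS2 and -0.51 at IFI16 before the offsets, and -0.44, -0.24, 0.20 and 0.37 with them. None of the 2163 peaks in the authors' list of up peaks lay at a member's start. The share over all gene starts was not computed, so this absence cannot be read as a trait of the members.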

How the data were processed

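RNA-seq of 9 PC3 libraries, ChIP-seq of 24 libraries and CUT&Tag of 3 libraries were read from the authors' tables. The members and lists were chosen with earlier results of these data known. RNA values were deposited by the authors as normalised signal per gene, gene counts divided by size factors in 1 table per line pair, with HISAT2 2.1.0 named in the submitters' processing notes. Dividing by the step of each library gave whole reads for 100% of the values (tolerance 1e-06), and the recovered reads carried the comparison of DDC with SLC6A4 and the alternatives. ChIP values were deposited as estimated counts of read pairs per region, made with featureCounts 2.0.3, which counted multi-mapping and overlapping reads as fractions and used the reverse-strand setting, per the file headers. Of their cells 9.78% were not whole, and all were rounded to whole numbers. The CUT&Tag values were deposited by the authors as CPM per peak, and the depth behind them is not known.

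RNA was tested with limma 3.58.1 (R 4.3.3, trend) on log2(value + 1) where 3 or more libraries of the comparison reached a value of 10. The region counts were tested with edgeR 4.0.16 (quasi-likelihood test, TMM), with the 9 libraries of a mark in 1 fit and 18 in the fit of both marks. All p-values were adjusted by Benjamini-Hochberg over all features tested, and 0.05 was the threshold. DESeq2 1.42.0, other scalings and filters, a window of 2500 bases, leaving out each library and a replicate block were alternatives. Offsets over 20 bins of GC content were added after seeing the data. They equalise the median level of each bin across the libraries of a mark. The tests were run on simulated data first. Per-library RNA values are given for every member called in any comparison, and other members by value or range. Gene positions matched GENCODE v44 on GRCh38 for 62625 of 62703 identifiers. Other CUT&Tag libraries and the input of the SLC6A4 line were not analysed here. Some items are not reported here.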

Additional observations from a re-analysis of the deposited data

Results flagged for a closer look

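The lines differed in a direct test at a number of members, and the values below are the log2 change with DDC minus that with SLC6A4. For RNA (limma, adjusted p under 0.05), ISG20 (1.03), UBE2L6 (0.54), IFI35 (0.50), OAS3 (0.47) and LGALS3BP (0.44) were higher with DDC, and BST2 (-2.41), IFIT2 (-0.67) and IFIT1 (-0.47) lower.

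For H3K4me3Q5ser (edgeR, adjusted p under 0.05), the difference was positive at IFI44L (0.74), SAMD9 (0.70), IFIT3 (0.48), DDX60 (0.47), SAMD9L (0.43), DDX58 (0.34), IFIT2 (0.34), IFIT1 (0.31), IFI16 (0.27), STAT2 (0.27), IFIH1 (0.23), IFI6 (0.19), IFI35 (0.16), the region of DTX3L and PARP9 (0.15) and PARP14 (0.11). It was negative at IFITM3 (-0.69), ISG20 (-0.68), LGALS3BP (-0.62), IRF7 (-0.61), the region of IFITM1 and IFITM2 (-0.45), ISG15 (-0.37), MX1 (-0.37), IRF9 (-0.28), IRF2 (-0.23), IRF1 (-0.20), OAS3 (-0.17), UBE2L6 (-0.17) and HERC5 (-0.14).

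For H3K4me3 the difference was positive at IFI44L (0.70), SAMD9 (0.68), DDX60 (0.61), SAMD9L (0.48), IFIT2 (0.41), IFI16 (0.33), IFIT3 (0.30), IFIH1 (0.29), DDX58 (0.29), IFIT5 (0.20), STAT2 (0.18) and PARP14 (0.18). It was negative at MX1 (-0.94), IRF7 (-0.83), IFITM3 (-0.74), IRF9 (-0.66), the region of IFITM1 and IFITM2 (-0.46), LGALS3BP (-0.43), ISG15 (-0.43), RSAD2 (-0.42), OAS2 (-0.29) and UBE2L6 (-0.16). For both marks the differences followed GC content over the 35 member regions (Spearman -0.82 and -0.85), and the signs that turned with offsets by GC content are given with the processing.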

How the results depend on the processing

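The counts of RNA members that fell were the least stable. With DDC, 4 fell, against 7 in edgeR scaled by library size alone, 1 in DESeq2 and 2 to 4 when single libraries were left out, while 2 to 5 rose without single libraries. In the direct comparison 3 were lower, against 5 with library size alone, 1 in DESeq2 and 2 to 5 without single libraries. The median RNA change ran from -0.067 to 0.031 with SLC6A4 without single libraries, and in the direct comparison it was 0.0031 with no filter, -0.065 with library size alone and -0.053 to 0.15 without single libraries. The replicate block gave 4 up and 4 down with DDC, 4 and 6 with SLC6A4 and 5 and 2 in the direct comparison, where IFIT1 lost its call. Libraries with the same number did not deviate together (correlations from -0.11 to 0.02), so the numbers were not taken as pairs.

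The median H3K4me3Q5ser change with DDC was -0.081 with a window of 2500 bases and -0.15 to -0.072 without single libraries. With SLC6A4 it was -0.20 with GC offsets, -0.13 with scaling by the total in regions, -0.013 with 2500 bases and -0.092 to -0.0094 without single libraries. The direct difference was 0.059, 0.041 and -0.044 to 0.038 for GC offsets, the total and single libraries. For H3K4me3 the median was -0.0010 with GC offsets and -0.039 to -0.0065 without single libraries with DDC, and 0.0032 (GC offsets), 0.14 (total) and 0.024 to 0.13 (single libraries) with SLC6A4. In the direct comparison it was -0.022 (GC offsets), 0.015 (total), -0.0020 (2500 bases) and 0.012 to 0.068 (single libraries). The GC offsets lowered the H3K4me3 regions called from 22 to 12 with SLC6A4 and from 22 to 8 in the direct comparison.

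The offsets turned the sign of 28 called values. For H3K4me3Q5ser with SLC6A4 these became LGALS3BP -0.10, IFIH1 0.0020, IRF1 -0.030, MX1 -0.065, IRF7 -0.41 and ISG15 -0.20. In the direct comparison they became IFIH1 -0.10, IRF1 0.11, MX1 0.21, IFI16 -0.33, ISG20 0.059, SAMD9L -0.17, IRF7 0.13, ISG15 0.090 and IRF9 0.037. For H3K4me3 they became IFI16 0.0064 with DDC, and DDX58 0.071, IFIT5 0.0096, IFI16 0.37, SAMD9L 0.067, IRF7 -0.12 and ISG15 -0.22 with SLC6A4. The direct H3K4me3 differences became IFIH1 -0.064, IFIT3 -0.052, IFIT5 -0.054, IFI16 -0.36, SAMD9L -0.066 and ISG15 0.15. The cause was not tested. Of the other called region values, 63 kept their call with the offsets and 33 kept only their sign; DESeq2 kept 110 of 124 calls. Members with few reads and the H3K4me3 libraries, at 3.43 to 5.81 M read pairs, give the least precise values.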
